A study of Mus musculus with 41 samples.

Results

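Scgb1a1, Scgb3a1 and Scgb3a2 encode the secretoglobins of the airway club cell. They are 3 of the 27962 gene names on the mRNA arrays, with 1 probe and 1 spot each. They were picked by gene name, with earlier results of these data known. The 28 arrays measured pieces of lung or liver taken from female C57BL/6 mice (C57BL/6BomTac in the study's methods) that had inhaled 40 mg/m3 of nanoTiO2, a surface-coated rutile, or filtered air for 1 h per day on 11 days and were killed 5 days after the last exposure. All of them were time-mated mice that proved not to be pregnant, with an age given in the labels as equivalent to gestation day 4. The lung groups held 7 exposed and 6 control mice, and the liver groups 7 exposed and 8 control mice, with 1 array per mouse and tissue. Matched by sample number, both tissues were on arrays for 12 mice, 6 exposed and 6 control. On each array the Cy5 dye carried the mouse sample and the Cy3 dye carried a universal mouse reference RNA from cell lines, with no dye swap. The lung sample was a small random part of the left lobe, so the amount of airway wall in it could differ from mouse to mouse.

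Club cells are non-ciliated secretory cells that line the conducting airways of the mouse. They secrete small disulfide-linked proteins of the secretoglobin family into the airway lining fluid, metabolise inhaled chemicals through cytochrome P450 enzymes, and serve as progenitors that renew the bronchiolar epithelium. Scgb1a1, also known as CC10 or uteroglobin, is the classical club cell product and is known for anti-inflammatory activity. Scgb3a2, also known as UGRP1, is made by bronchiolar club cells and is bound by the macrophage scavenger receptor Marco. Scgb3a1, also known as HIN-1 or UGRP2, is made mostly in the larger airways of the mouse.

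The values of each gene rest on 1 probe of 60 bases. The first 30 bases are shown for the probes whose values the results turn on, as synthesised on the array.

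Scgb1a1: tgaagctcactggatttcagagatattcta

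Scgb3a1: gttgaggggaacctgggaaaattctgcctg

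In the mm7 coordinates of the lung scanner files, the Scgb1a1 probe lay at chr19:8763869-8763928 on the minus strand. The Scgb3a1 probe lay at chr11:49621744-49621803 on the plus strand and the Scgb3a2 probe at chr18:44144762-44144821 on the plus strand. In the later build GRCm38.p6 (RefSeq) the genes themselves occupy chr19:9083642-9087956, chr11:49663595-49665118 and chr18:43764301-43767399, with lengths of 4315, 1524 and 3099 bases. The exon or untranslated region that each probe covers was not determined here. The 3 genes lie on 3 chromosomes, so their probes share no locus.

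Scgb3a1 was the member that varied most between lung arrays, and the only 1 of the 3 for which a promoter sequence was available. The 250 bases before its start (RefSeq, GRCm38.p6 chr11:49663345-49663594, plus strand) are shown for these reasons. Capitals mark matches to 2 motifs of lung epithelial transcription factors, CTTGAG (the core letters bound by NKX2-1) and TGTTTGC (a FOXA-type motif).

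Scgb3a1: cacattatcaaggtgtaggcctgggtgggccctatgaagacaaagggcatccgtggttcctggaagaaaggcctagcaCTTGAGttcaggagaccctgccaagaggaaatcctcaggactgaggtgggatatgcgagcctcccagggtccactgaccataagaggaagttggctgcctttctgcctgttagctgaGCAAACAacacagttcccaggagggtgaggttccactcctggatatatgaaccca

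Both strands were searched. CTTGAG began 172 bases before the start on the plus strand and occurs in 13.3% of 32851 mouse promoter windows of the same length. TGTTTGC was found on the minus strand, written here as GCAAACA, beginning 55 bases before the start, and occurs in 4.3% of the windows. Both motifs were present in 0.575% of the windows. The motifs do not overlap each other, were chosen after the sequence was seen, and are matches of letters only.

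In the lung, 61.3 to 67.5% of spots were well above background in Cy5, against 55.1 to 70.5% in the liver. The labelled tissues matched their defining markers. For 7 of 8 alveolar type 2 genes every lung array lay above every liver array, as for 19.0% of all probes. For 7 of 7 hepatocyte genes every lung array lay below every liver array. The share of all probes in that direction was not computed. Each slide held 1 tissue, so tissue and slide cannot be told apart. Exposed samples sat at positions 1 and 2 of their slides and control samples at positions 3 and 4, so exposure and slide position cannot be told apart either. Lung slides 1 to 3 held both groups, and lung slide 4 held exposed mice 20 and 23 only. The lung arrays of control mice 27 and 29, on slide 2, stood apart for Scgb3a1 and for a set of other airway and heart muscle genes described below, and results that rest on them are given with and without them.

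All 3 secretoglobins were far brighter in the lung than in the liver. The Cy5 signal of Scgb1a1 in the lung, in scanner units before background correction, ran from 155409 (median 246325, highest 318692) in exposed mice and from 155064 (median 242600, highest 429784) in controls. In the liver it was 100 to 255 (median 217) in exposed mice and 96 to 268 (median 168.5) in controls. The lowest lung array was therefore 579 times the highest liver array, with exposed and control mice overlapping within each tissue.

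Scgb3a2 gave Cy5 signals of 57590 to 145481 (median 91711) in exposed lungs and 42320 to 153742 (median 98522) in control lungs. Liver signals of Scgb3a2 were 117 to 344 (median 164) in exposed mice and 112 to 349.5 (median 147.5) in controls. Here the lowest lung array was 121 times the highest liver array, again with overlap between exposed and control mice.

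Scgb3a1 was spread far more widely over the lung arrays. Its Cy5 signal in exposed lungs was 11932 in mouse 1, 29549 in mouse 7, 17902 in mouse 12, 124334 in mouse 13, 87822 in mouse 19, 33635 in mouse 20 and 26288 in mouse 23. In control lungs it was 62680 in mouse 24, 30013 in mouse 26, 1264 in mouse 27, 1302 in mouse 29, 50338 in mouse 32 and 40032 in mouse 34. Exposed mouse 13 was the highest and control mice 27 and 29 the lowest, and the groups overlapped. The liver signals of Scgb3a1 lay between 107 and 141 in both groups, so that even the lowest lung array was 8.96 times the highest liver array. From lowest to highest, the lung signal spanned 98.4-fold for Scgb3a1, 2.77-fold for Scgb1a1 and 3.63-fold for Scgb3a2.

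**Figure D1:**
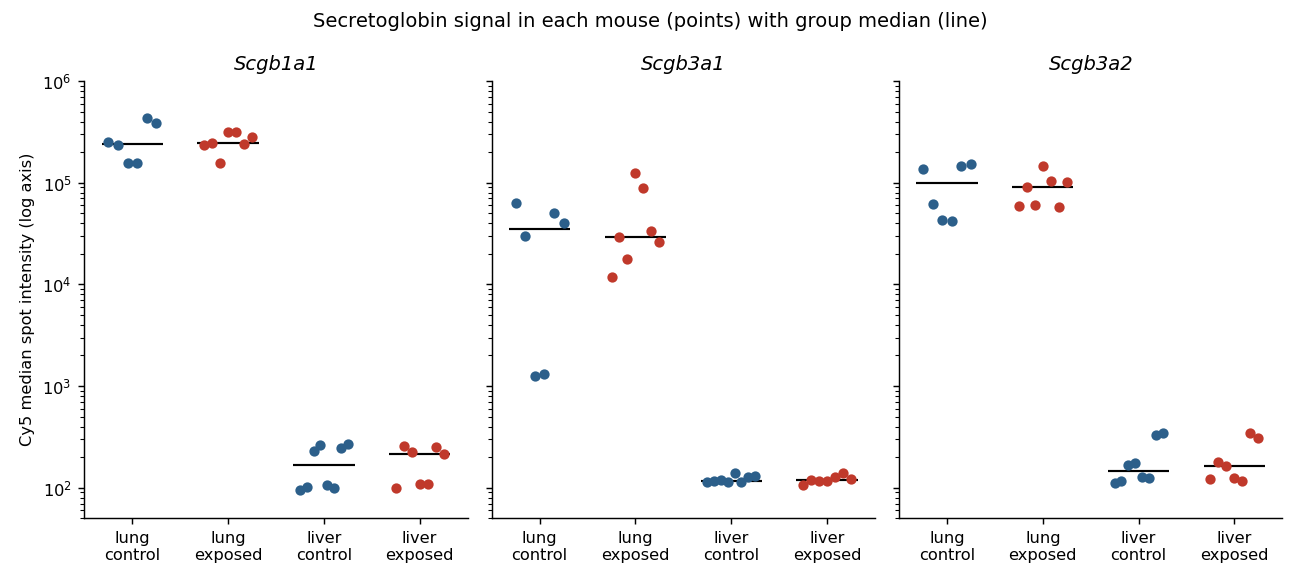
Background-uncorrected Cy5 signal (log axis, arbitrary scanner units) of the 3 secretoglobin probes on each of the 28 arrays, by tissue and group, 1 point per array with a line at the group median. For each probe every lung array lies above every liver array, and the 2 low Scgb3a1 points among the lung controls, at 1264 and 1302, are control mice 27 and 29.

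For all 3 genes every one of the 13 lung arrays lay above every one of the 15 liver arrays, which was also so for 7842 of 41174 probes (19.0%). The ratio of Cy5 to Cy3 was tested with limma over all probes. In control mice the lung exceeded the liver by 6.48 on the log2 scale for Scgb1a1 (SE 0.21, 95% interval 6.05 to 6.91, adjusted p = 2.1e-18), by 3.87 for Scgb3a1 (SE 0.16, 3.54 to 4.20, adjusted p = 3.2e-17) and by 7.31 for Scgb3a2 (SE 0.11, 7.07 to 7.54, adjusted p = 3.2e-26). These are 89.5-fold, 14.6-fold and 158-fold. In exposed mice the differences were 6.32 (5.92 to 6.72, adjusted p = 7.5e-19), 4.23 (3.91 to 4.54, adjusted p = 1.8e-18) and 7.28 (6.98 to 7.57, adjusted p = 5.8e-24) by limma. Of all probes, 59.6% were called in control mice (30.0% higher and 29.7% lower in the lung) and 61.2% in exposed mice (30.7% higher and 30.5% lower), so a call between these tissues is common. In bulk tissue, fewer cells of a type and less RNA per cell cannot be told apart.

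The size of the tissue difference depended on the channel. From Cy5 alone, scaled to each array's 75th percentile, it was 10.86, 7.09 and 9.13 in control mice and 10.74, 8.42 and 9.06 in exposed mice (log2, Scgb1a1, Scgb3a1 and Scgb3a2 in that order). The Cy3 signal at the same spots also differed between tissues, although the same reference RNA was on every array. At Scgb1a1 it was 2823 to 4109 on lung arrays and 36 to 114 on liver arrays, at Scgb3a1 129.5 to 4485 against 35 to 53, and at Scgb3a2 363 to 661 against 47 to 161.5. Scaled Cy3 was higher on lung arrays by 5.14, 4.01 and 2.17 on the log2 scale, while the median over all probes was -0.08, and 4, 8 and 36 of the 41174 probes showed a Cy3 difference as high. Over the 38 probes whose Cy5 difference between tissues was at least 6, the median Cy3 difference was 1.93. Within the lung, Cy3 amounted to 0.809 to 2.4% of Cy5 at Scgb1a1, 3.07 to 11.3% at Scgb3a1 and 0.398 to 0.866% at Scgb3a2. Over the lung arrays Cy3 rose with Cy5 for Scgb3a2 (Pearson r = 0.86, Spearman rho = 0.94, n = 13, permutation p adjusted for 3 genes 3e-05 and 3e-05, r = 0.87 without the 2 arrays farthest from the median). At Scgb3a1 r was 0.99 over the 11 arrays without control mice 27 and 29 (permutation p = 3e-05). At Scgb1a1 r was 0.28 and rho 0.25 (permutation p = 0.37 and 0.43), with r = 0.58 without the 2 farthest arrays. Between the tissues the log2 ratio differences of the 3 genes were smaller than the differences in Cy5 alone. Slide was not held fixed in these correlations. The cause was not tested, and both measures are given for each comparison.

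**Figure D2:**
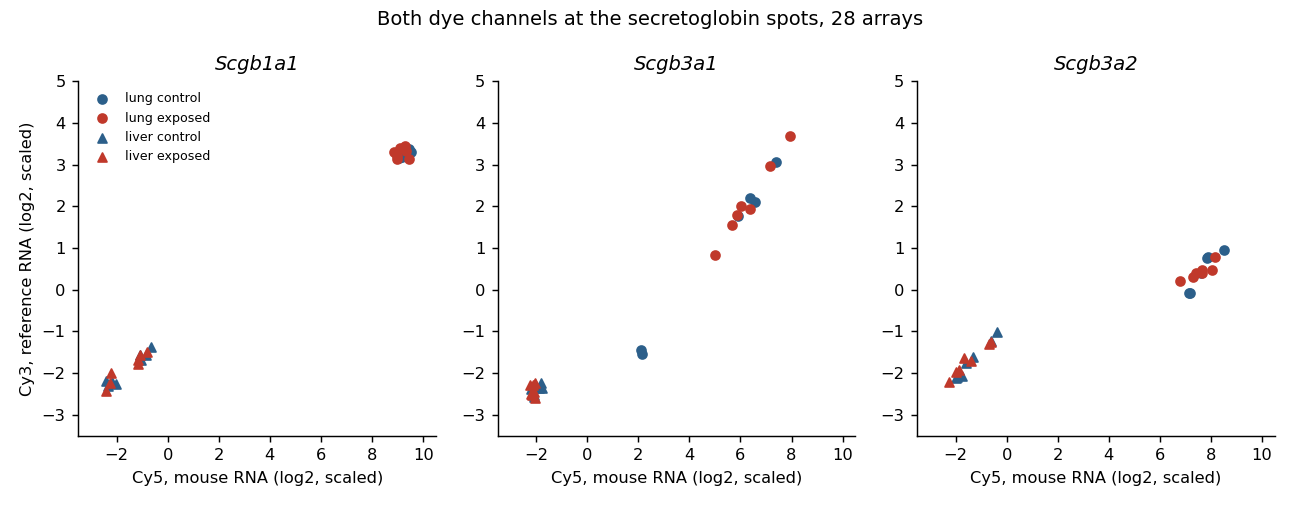
Scaled Cy5 (x axis, mouse sample) against scaled Cy3 (y axis, reference RNA) on the log2 scale for each secretoglobin on 28 arrays, with circles for lung, triangles for liver, blue for control and red for exposed mice. Lung arrays lie higher than liver arrays in both channels, by 5.14, 4.01 and 2.17 in Cy3 for Scgb1a1, Scgb3a1 and Scgb3a2, and the 13 lung arrays of Scgb3a1 form a rising line.

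The exposure comparison asked whether inhaled nanoTiO2 changed the secretoglobins in the lung 5 days after the last exposure. The log2 ratio of Scgb1a1 was 6.48 ± 0.34 (SD, n = 7; 6.08 to 7.06) in exposed lungs and 6.68 ± 0.14 (SD, n = 6; 6.51 to 6.93) in control lungs. Of the 7 exposed mice, 5 lay below every control and 1 above every control. For Scgb3a1 the ratio was 4.58 ± 0.20 (SD, n = 7; 4.34 to 4.95) in exposed and 4.36 ± 0.50 (SD, n = 6; 3.68 to 4.93) in control lungs, where control mice 27 and 29 had the lowest values, 3.68 and 3.82. The ratio of Scgb3a2 was 7.52 ± 0.38 (SD, n = 7; 6.87 to 8.06) in exposed and 7.63 ± 0.16 (SD, n = 6; 7.46 to 7.92) in control lungs, with 2 exposed mice below and 1 above every control. The groups overlapped for all 3 genes. Groups did not overlap for 159 of 41174 probes (0.386%).

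None of the 3 secretoglobins passed the test between exposed and control lungs, where 83 of 41155 probes (0.202%) did, 74 of them higher (0.18%) and 9 lower (0.0219%) in exposed mice. Outlier marks from the scanner software took 14 member values out of this test, all of them for the Cy5 local background and none for saturation. These local backgrounds were 48 to 68.5 units, at most 0.247% of the spot's signal. The difference was -0.10 for Scgb1a1 (95% interval -0.46 to 0.25, limma adjusted p = 0.92; 4 exposed and 3 control arrays), 0.37 for Scgb3a1 (-0.15 to 0.89, adjusted p = 0.79; 5 and 4 arrays) and -0.05 for Scgb3a2 (-0.27 to 0.17, adjusted p = 0.95; 3 and 6 arrays). With all 13 arrays kept it was -0.20 (SE 0.13, -0.49 to 0.08, adjusted p = 0.79), 0.22 (SE 0.18, -0.17 to 0.60, adjusted p = 0.83) and -0.11 (SE 0.15, -0.43 to 0.20, adjusted p = 0.90) by limma. Exact two-sided permutation tests over the 1716 splits of the 13 arrays gave p = 0.20, 0.33 and 0.53, where the smallest possible p was 0.00058.

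The positive value of Scgb3a1 rested on control mice 27 and 29. Without them, and with marked spots kept, the log2 ratio difference was -0.09 (95% interval -0.33 to 0.15, limma adjusted p = 0.94). In Cy5 alone the difference was 1.21 (SE 0.87, -0.65 to 3.07, adjusted p = 0.85) with these mice and -0.27 (-1.33 to 0.78, adjusted p = 1) without them, in a setting where the median of all probes was -0.11 with them. Scgb1a1 and Scgb3a2 differed by -0.14 each in Cy5 alone with all arrays, and by -0.26 and -0.40 without these mice. In Cy5 the intervals were thus wide for Scgb3a1, and changes of the sizes they include, in either direction, were not excluded.

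Within slides the Scgb1a1 and Scgb3a1 ratios differed in sign between slides. Exposed minus control log2 ratios on lung slides 1, 2 and 3 were 0.12, -0.10 and -0.33 for Scgb1a1, -0.07, 0.75 and 0.11 for Scgb3a1, and 0.00, 0.03 and 0.03 for Scgb3a2. In Cy5 alone the values were -0.09, -0.07 and -0.18 for Scgb1a1, negative on each of the 3 slides, -1.29, 3.74 and 1.41 for Scgb3a1, and -0.40, 0.46 and -0.09 for Scgb3a2. Each value rests on 1 or 2 mice per group and was not tested. Control mice 27 and 29 were the only controls on slide 2.

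In the liver the secretoglobins lay close to the dim end of the array. Scgb1a1 was well above background on 12 of 15 liver arrays (6 of 7 exposed, 6 of 8 control), and Scgb3a1 and Scgb3a2 on 15 of 15, all in Cy5. In Cy3 the Scgb3a1 spot was well above background on only 4 of 15 liver arrays (2 of 7 exposed and 2 of 8 control), so the liver ratio of Scgb3a1, and the 14.6-fold difference between tissues, rest on a reference signal that was not well above background on most liver arrays. Exposed minus control log2 ratios were 0.06 (95% interval -0.29 to 0.42), 0.01 (-0.14 to 0.16) and -0.02 (-0.26 to 0.23) for Scgb1a1, Scgb3a1 and Scgb3a2, with adjusted p = 1 by limma for each. Exact two-sided permutation tests over 6435 splits gave p = 0.74, 0.89 and 0.89. No probe of 41143 was called in the liver (0.0%), while 1039 had an unadjusted p under 0.05, and exposed and control livers did not overlap for 0.0243% of probes, none of them a member. The liver signal followed the slide for Scgb1a1, with Cy5 of 96 to 102 on slide 1, 224 to 266 on slide 2, 100 to 109 on slide 3 and 217 to 268 on slide 4, exposed and control alike. Scgb3a2 was 112 to 123, 164 to 180, 117 to 128 and 311 to 350 on the same slides. Within slides 1 to 4 the exposed minus control log2 ratios of Scgb1a1 were -0.14, -0.07, 0.26 and -0.06. Those of Scgb3a1 were -0.13, 0.13, 0.02 and -0.04, and those of Scgb3a2 -0.02, -0.05, -0.07 and 0.01.

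The exposure effects of lung and liver did not differ beyond their error for any of the 3 genes. The lung effect minus the liver effect was -0.17 (95% interval -0.75 to 0.42) for Scgb1a1, 0.36 (-0.09 to 0.81) for Scgb3a1 and -0.03 (-0.41 to 0.35) for Scgb3a2, each with adjusted p = 1 by limma. Of all probes, 0.141% were called in this test, 0.126% in the positive and 0.0146% in the negative direction. Without the lung arrays of control mice 27 and 29 the value for Scgb3a1 was -0.10. In the order of levels, then, exposed and control lungs came first without a difference beyond their spread, and exposed and control livers followed, again without one.

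**Figure D3:**
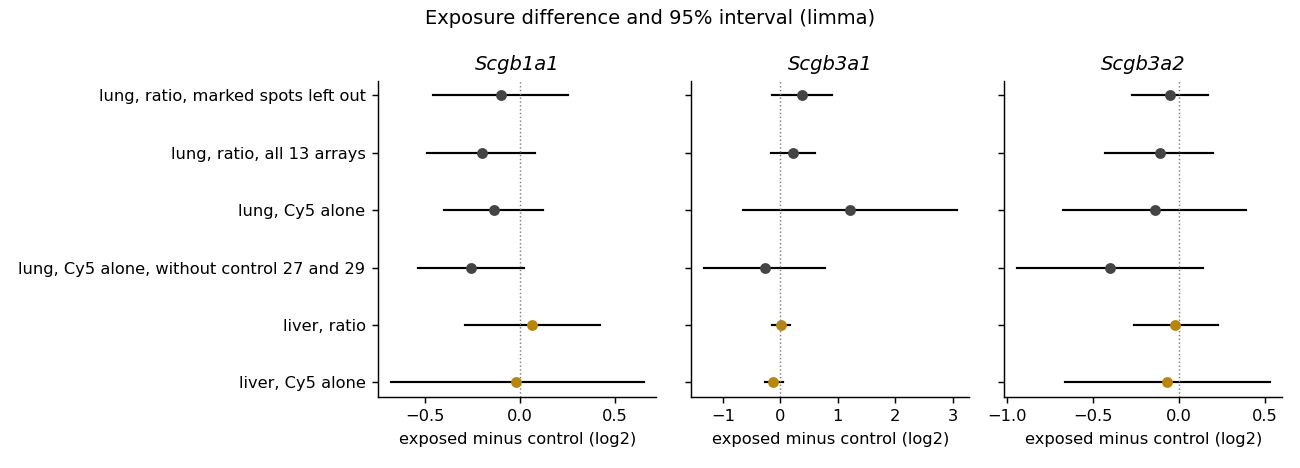
Exposed minus control difference (log2) with its 95% interval from limma for each secretoglobin in lung and liver, as the Cy5 to Cy3 ratio and as Cy5 alone, with marked spots left out, kept, and without control mice 27 and 29. The horizontal scales differ between panels, and the Scgb3a1 difference in lung Cy5 goes from 1.21 to -0.27 when these mice are left out, with intervals that include 0.

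Joint variation of the 3 secretoglobins was measured over the 13 lung arrays. With group means removed, the log2 ratios of Scgb1a1 and Scgb3a1 correlated with r = 0.54 (permutation p adjusted over 3 pairs 0.0099) and rho = 0.68 (0.013), and r fell to 0.45 (permutation p = 0.089) without the 2 arrays farthest from the median, so the relation rested in part on those arrays. For Scgb1a1 and Scgb3a2 r was 0.68 (adjusted permutation p = 0.065) and rho 0.44 (0.27), with r = 0.13 without the 2 farthest arrays. For Scgb3a2 and Scgb3a1 r was 0.34 (adjusted permutation p = 0.12) and rho 0.25 (0.39), with r = 0.10 without them. Control mice 27 and 29 lay apart for Scgb3a1. Over the 11 arrays without them the 3 correlations were 0.78 for Scgb1a1 and Scgb3a1, 0.70 for Scgb1a1 and Scgb3a2 and 0.75 for Scgb3a2 and Scgb3a1 (adjusted permutation p = 0.018, 0.042 and 0.019). In scaled Cy5 over those 11 arrays they were 0.15, 0.51 and 0.55 (adjusted permutation p = 0.69, 0.21 and 0.21). These tests leave the slide out of account, while the ratios differed by slide, with Scgb1a1 at 6.70 to 7.06 on slide 1 and 6.08 to 6.28 on slide 4, and Scgb3a1 at 4.57 to 4.95 and 4.34 to 4.44. With slide removed as well as group, the ratio correlations over the 13 arrays were 0.25 for Scgb1a1 and Scgb3a1, 0.39 for Scgb1a1 and Scgb3a2 and 0.36 for Scgb3a2 and Scgb3a1, and 0.36, 0.40 and 0.60 over the 11 arrays, given as descriptions with 8 and 6 residual degrees of freedom.

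Control mice 27 and 29 also had the lowest Scgb1a1 and Scgb3a2 levels among the controls, by a far smaller margin. Scaled Cy5 of Scgb1a1 was 9.05 in both, where the other controls lay between 9.19 and 9.54 and the lowest exposed mouse at 8.86 (log2). Scgb3a2 was at 7.20 and 7.16, where the other controls lay between 7.61 and 8.52 and the lowest exposed mouse at 6.80. Before scaling, their Scgb3a2 signals of 42789 and 42320 were the lowest of the 13 lungs, followed by 57590, and the 3 lungs of slide 2 had the lowest Scgb1a1 signals, 155064 to 156866. The bright club cell genes Cbr2, a carbonyl reductase, and Cyp2f2, the club cell cytochrome P450, lay within the range of the other lungs. Cbr2 was at 9.20 and 9.07 in these mice and Cyp2f2 at 7.44 and 7.31. The log2 of the summed, scaled Cy5 of the 18 other club cell genes was 10.08 and 10.05 in them. The other controls lay between 10.37 and 10.64 and the lowest exposed mouse at 9.96. Scgb3a1 was at the bottom of its range, between 2.11 and 7.40 in controls.

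Several airway secretory genes, chosen after their values were seen, were lowest in the same mice. Muc5b, a gel-forming airway mucin, was at -1.42 in mouse 27 and -1.32 in mouse 29, against 0.09 to 2.76 elsewhere (log2, scaled Cy5). Reg3g, an antimicrobial lectin, was at -1.62 and -1.20 against -0.31 to 4.65. Bpifb1, a secreted protein of the larger airways, was at -1.50 and -1.29 against -0.38 to 3.69, and Lypd2 at 1.01 and 1.01 against 1.29 to 3.23. Low values in these mice were not limited to secretory genes. The log2 of the summed, scaled Cy5 of the 9 ciliated cell genes was 3.72 and 3.71 in them, against 4.14 to 4.64 elsewhere. At the other end, exposed mouse 13 had the highest level of Scgb3a1, Muc5b, Reg3g, Lypd2 and Bpifb1. Not every gene of the club cell list was lowest in control mice 27 and 29. Bpifa1, a relative of Bpifb1, was at 1.36 and 2.02 in them but lowest in exposed mouse 20, at 0.62. Upk3a was among its highest values there, at -1.93 and -2.05, and Sec14l3, at 2.82 and 3.04, lay within the 2.71 to 3.30 of all lungs. The part of these genes in the spread of Scgb3a1 was not tested.

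Heart muscle genes moved with Scgb3a1 too. The 5 genes of the heart muscle list (Myh6, Nppa, Actc1, Myl7 and Tnnt2) were all well above background on every lung array. The log2 of their summed Cy5, scaled, was 5.64 to 7.40 in exposed lungs and 3.41 to 7.01 in controls, with mouse 27 at 3.41 and mouse 29 at 4.60. Tnnt2, the cardiac troponin T gene, was at 0.79 and 1.87 in these mice and reached 5.02 elsewhere. Its part in the Scgb3a1 values was not tested.

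**Figure D4:**
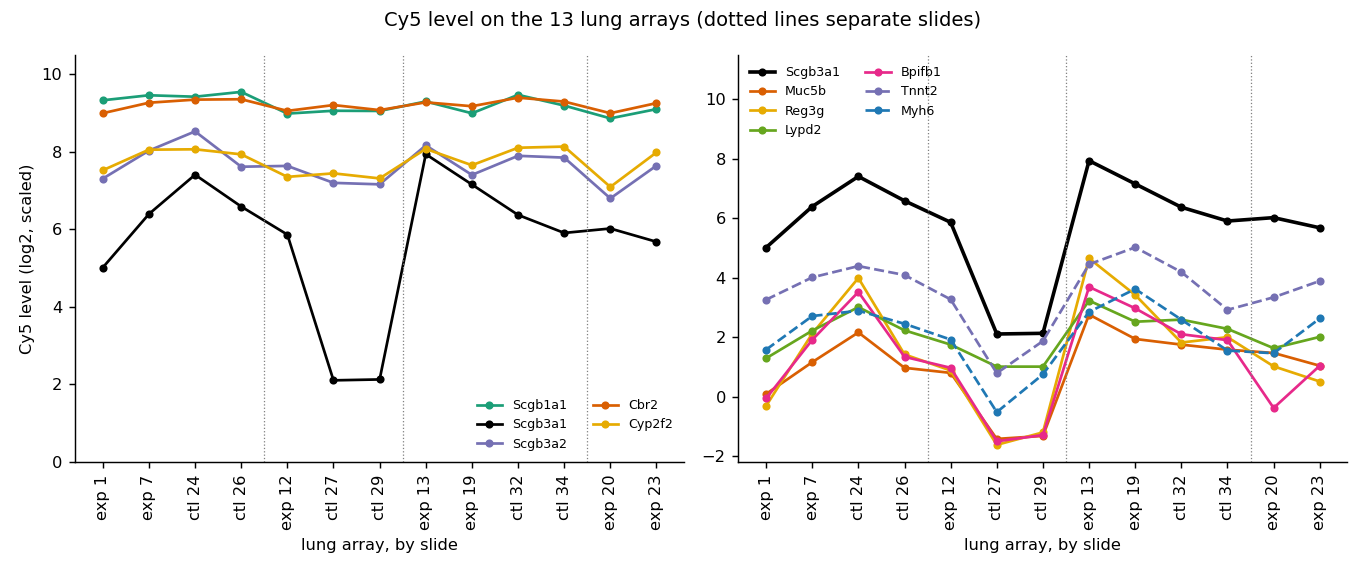
Scaled Cy5 level (log2) on the 13 lung arrays, ordered by slide with dotted lines between slides, of the 3 secretoglobins, Cbr2 and Cyp2f2 (left) and of Scgb3a1, Muc5b, Reg3g, Lypd2, Bpifb1 and, dashed, Tnnt2 and Myh6 (right), with lines joining arrays only to guide the eye. In control mice 27 and 29 the genes on the right reach their lowest levels while Scgb1a1 stays at 9.05.

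Genes whose profile was most like that of each secretoglobin were ranked over the 13 lung arrays and 23462 probes well above background, as a description. By log2 ratio the highest r with Scgb1a1 was 0.95 for Baz2a, followed by 0.93 for Rasgef1a and 0.92 for Wfdc2. For Scgb3a1 they were Mb (0.94), which encodes myoglobin, Nek4 (0.92) and Eif1ay as named on the array (0.92). For Scgb3a2 they were Tmem154 (0.90), 8430408G22Rik (0.87) and Maz (0.87). By scaled Cy5, an order added after the values were seen, Scgb3a1 was most like Muc5b (0.97), ENSMUST00000067022 as named on the array (0.96) and Cd24a (0.95). Without control mice 27 and 29 the highest were Reg3g (0.96), 4930434E21Rik (0.95) and Tmc5 (0.95).

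By list, r with Scgb3a1 in scaled Cy5 exceeded 0.5 for 12 of 18 other club cell genes (median 0.62), 8 of 9 ciliated cell genes (median 0.68) and 5 of 5 heart muscle genes (median 0.87), against 10.2% of all probes. Without control mice 27 and 29 it exceeded 0.5 for 7 of 18, 3 of 9 and 5 of 5, against 4.5% of all probes. With Scgb3a2, r exceeded 0.5 for 14 of 18 other club cell genes (median 0.70, all probes 6.44%), and with Scgb1a1 for 9 of 18 (median 0.48, all probes 6.87%). Without control mice 27 and 29 these were 10 of 18 (median 0.61, all probes 6.16%) and 5 of 18 (median 0.30, all probes 12.8%). The points share arrays and slides, and no test was made.

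**Figure D5:**
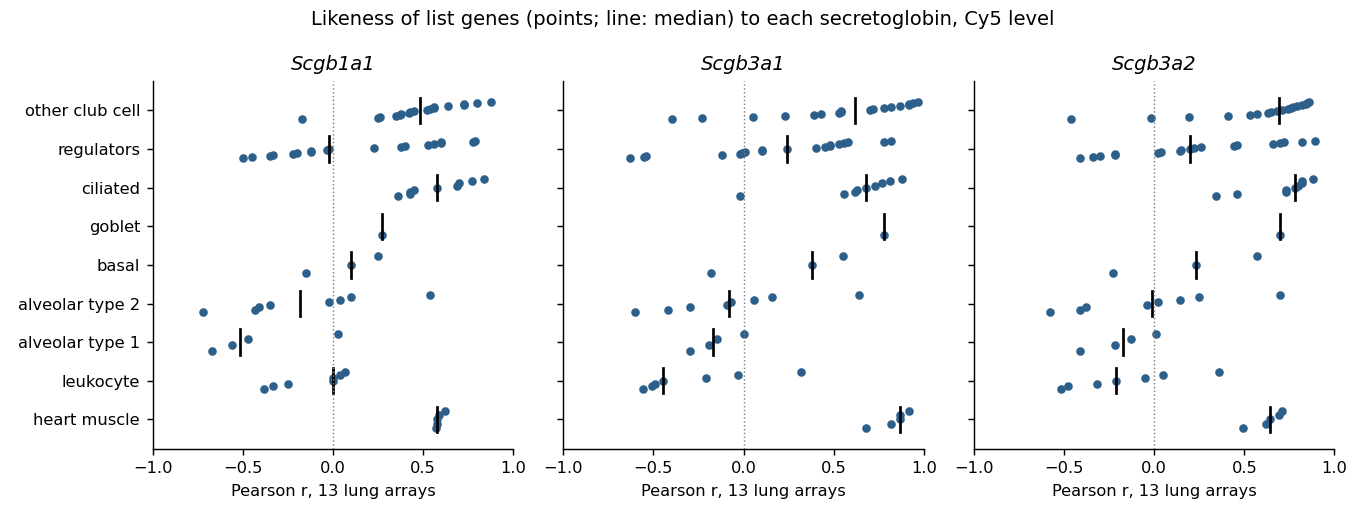
Pearson r over the 13 lung arrays between each secretoglobin and each gene of the listed cell types that was well above background on all lung arrays (scaled Cy5, group means removed), 1 point per gene, with a line at the list's median. Other club cell genes have medians of 0.48, 0.62 and 0.70 with Scgb1a1, Scgb3a1 and Scgb3a2, and the 5 heart muscle genes a median of 0.87 with Scgb3a1.

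Among the wider secretoglobin family, 6 of 8 listed genes were found on the array, all of them androgen-binding protein genes. None was well above background on all lung arrays, and none passed the test between exposed and control lungs (-0.06 for Abpe to 0.05 for Abpd). In control mice none of the 6 passed the test between lung and liver (lowest adjusted p by limma 0.066). In exposed mice 2 of the 6 were called lower in the lung, against 30.5% of all probes. The differences were -0.21 for Abpb (limma adjusted p = 0.0002) and -0.11 for Abpe (adjusted p = 0.032). All 6 genes were well above background on none of the exposed lung arrays, and 4 of them on none of the exposed liver arrays. The lung side of both differences thus lies in signals not well above background. In liver the largest exposure difference was 0.07.

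Of 18 other club cell genes none passed the exposure test in the lung, with a median of -0.02 against 0.00 for all probes. The widest difference was 0.73 for Muc5b (limma adjusted p = 0.80). Of the 6 brightest, Cbr2 differed by -0.10 and Cyp2f2 by -0.09. Hp, the haptoglobin gene, differed by 0.03 and Aldh1a1, a retinaldehyde dehydrogenase, by -0.03. Cyp4b1, a cytochrome P450, differed by -0.07 and Ldhb, a lactate dehydrogenase subunit, by -0.14. The sign of the list was not stable, with 8 of 18 genes positive here, 16 of 18 with median centering and 3 of 18 with the background model fitted on all spots. Without control mice 27 and 29 it was 3 of 18 (median -0.17, marked spots kept) by ratio and 1 of 18 in Cy5 alone (median -0.31, all probes 0.03). In the liver none was called, and the widest difference was -0.39 for Cyp2f2 (adjusted p = 1).

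Between tissues, 13 of the 18 other club cell genes were called higher in the lung of control mice and 5 were called lower. Of all probes, 30.0% were called higher and 29.7% lower. The median of the list was 2.50 against -0.02 for all probes. Cbr2 was 7.51 higher, Bpifa1 4.91 higher and Ldhb 4.67 higher on the log2 ratio scale. The 5 that were lower, Cyp2f2 (-0.63, and -0.07 in Cy5 alone), Aldh1a1 (-0.55), Hp (-1.05), Cyp2a5 (-2.12) and Pon1 (-3.01), include genes that the liver is known to express.

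Transcription factors and signals known to act on secretoglobin genes or club cell fate showed a tissue difference and no exposure call. In control mice 16 of 19 were called higher in the lung (all probes 30.0%) and 1 was called lower (all probes 29.7%). Their median was 1.59. Nkx2-1, the lung and thyroid homeodomain factor, named Titf1 on the array, was 3.20 higher. Hey1, a Notch target, was 5.07 higher and Elf5, an epithelial ETS factor, 4.19 higher. Foxa1 was 0.49 higher, Foxa2 differed by 0.11 (limma adjusted p = 0.36) and Cebpa was lower (-1.72). Exposure called 0 of 19 in the lung. The widest difference was -0.26 for Foxp2 (adjusted p = 0.27), while Nkx2-1 differed by 0.02, Foxa1 by 0.00 and Foxa2 by -0.05. In the liver the widest was 0.14 for Notch2.

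A list of 8 receptors and enzymes linked to secretoglobins held receptors that bind them and phospholipases that Scgb1a1 is known to inhibit. Marco alone of these was called, higher in exposed lungs. The ratio of Marco was 5.27 to 5.60 in exposed and 4.61 to 5.20 in control lungs, so the groups did not overlap, as for 0.386% of all probes. The difference was 0.57 (SE 0.09, 1.48-fold, limma adjusted p = 0.0092), where 0.202% of all probes were called. Marco was called in 13 of 13 fits that left out 1 mouse (highest adjusted p 0.034) and in 6 of 13 alternatives, over which the difference ranged from 0.17 to 0.97 with adjusted p from 0.0062 to 1. Without control mice 27 and 29 it was not called, at 0.50 by ratio (limma adjusted p = 0.078, marked spots kept) and 0.77 in Cy5 alone. In Cy5 alone with these mice it was 0.97 (limma adjusted p = 0.23). The median of the 8 genes was 0.01. In control mice 5 of the 8 were called higher in the lung than in the liver, against 30.0% of all probes. Among them Lrp2 (megalin), an endocytic receptor of the proximal tubule and lung epithelium, was higher by 4.02, its partner Cubn by 0.44 and Marco by 0.66. In the liver none was called, with -0.24 for Marco as the widest.

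Of the cell types that share the airway, 1 of 9 ciliated cell genes was called in the lung. Foxj1, the master factor of motile cilia, was higher in exposed lungs by 0.29 (SE 0.05, 1.23-fold, limma adjusted p = 0.037), with ratios of 2.90 to 3.35 against 2.88 to 2.99. These values rest on 6 exposed and 6 control arrays, with the marked spot of 1 exposed mouse left out. With marked spots kept the Foxj1 difference was 0.25 (limma adjusted p = 0.29), and 0.23 (adjusted p = 0.66) without control mice 27 and 29 as well. Foxj1 was called in 3 of 13 alternatives and 3 of 13 fits that left out 1 mouse, and the difference became -0.32 with the background model fitted on all spots. The ciliated median was 0.22, and -0.30 in that setting. Without control mice 27 and 29 it was 0.06 by ratio, with 8 of 9 genes positive, and 0.00 in Cy5 alone, with 4 of 9 positive. None of 4 goblet cell genes was called (median 0.55, Clca3 1.05, adjusted p = 0.87), nor any of 4 basal cell genes (median 0.17, Ngfr 0.31). The goblet median was 0.03 by ratio and 0.06 in Cy5 alone without control mice 27 and 29.

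Alveolar and blood cell lists gave no exposure call. Alveolar type 2 genes had a median of -0.08 over 7 tested (Lamp3 0.32, limma adjusted p = 0.29), alveolar type 1 genes -0.06 over 4 (Pdpn 0.20) and leukocyte genes 0.00 over 8 (Cd68 0.36, adjusted p = 0.10). Their summed Cy5 in exposed and control lungs overlapped (log2, scaled). It was 10.47 to 10.73 against 10.39 to 10.72 for alveolar type 2 and 3.55 to 3.82 against 3.52 to 3.78 for leukocyte genes. For alveolar type 1 genes the overlap was narrow, with 7.27 to 7.51 in exposed against 7.46 to 7.67 in control lungs. Markers of liver and heart muscle were measured in the lung as well. Hepatocyte genes had a median of 0.51 in the lung (0 of 7 called, Fgb 1.14), with summed levels of 0.99 to 4.80 in exposed and 0.78 to 1.85 in control lungs. Heart muscle genes had a median of 0.29 (0 of 5 called, Tnnt2 0.64, adjusted p = 0.78), which was -0.04 by ratio and -0.13 in Cy5 alone without control mice 27 and 29. Their part in the secretoglobin values was not tested. In the liver no list held a called gene. The widest liver differences were -0.15 for Foxj1, -0.18 for Foxa3 (goblet), -0.19 for Krt14 (basal), -0.16 for Sftpd (alveolar type 2), 0.15 for Hopx (alveolar type 1), -0.30 for Emr1 (leukocyte), -0.36 for Alb (hepatocyte) and -0.11 for Myl7 (heart muscle), each with adjusted p = 1 by limma.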

How the data were processed

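Per the file headers, the deposited scanner tables of 28 two-colour arrays hold, for each of 43379 spots (41174 probes), median Cy5 and Cy3 intensity and local background, from which the authors made a deposited table of log2 ratios by LOWESS within arrays. That table was used here only as an alternative. Scanner software and the genome build it named differed between the tissues (9.5.3.1 and mm7 for lung, 10.1.1.1 and mm8 for liver).

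Here intensities were background-corrected with normexp (offset 50, fitted without spots marked as outliers), normalised by loess within arrays, and tested with limma 3.58.1 in R 4.3.3 with Benjamini-Hochberg adjustment over all probes and a threshold of 0.05. Marked spots were left out, no filter on dim probes was used, and spots of a probe were averaged. "Cy5 alone" means the background-corrected log2 Cy5 scaled to each array's 75th percentile, with marked spots kept. Cy5 and Cy3 signals given in scanner units are medians of the spot without background correction. Means ± SD in the text include marked spots. Permutation tests were run in Python 3.11.15 with numpy 2.4.6 (exact, or 100000 resamples for correlations).

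The members and gene lists were chosen with earlier results of these data known. Named list genes are those called, the one with the widest difference per list and exposure comparison, and the 6 brightest other club cell genes in lung; for genes with several probes, the brightest. Within the ciliated list the called gene is named. Exceptions chosen after their values were seen are said to be so; genes named in the tissue comparisons are examples of this kind as well. The 3 promoter entries sought yielded 1.

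Replicates were separate mice with 1 array each, whose number limits the precision. The study took liver RNA from the same mice as the lung RNA, and samples of a group with the same number were taken here as 1 mouse. The labels do not state this link, and some numbers of exposed mice here label controls among the microRNA samples. Over the 12 mice the deviations of both tissues correlated with r from -0.07 to 0.21 (median 0.07). In tests on simulated data with 200 changed probes of 41174 (log2 change 1), 99% were recovered in lung, in liver and between tissues in control mice, and 94% for the difference of effects. Unchanged probes called numbered 16, 14, 9 and 10 in that order. The simulation kept all arrays, drew independent noise without slide effects, and used a change larger than the members' ratio differences in the main lung test. It therefore does not show what could be detected for the members, whose marked values were left out.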

Additional observations from a re-analysis of the deposited data

How the results depend on the processing

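The tissue differences of all 3 secretoglobins kept their sign and passed the threshold in every alternative run, at 6.05 to 11.29 (Scgb1a1), 2.63 to 8.58 (Scgb3a1) and 6.98 to 9.57 (Scgb3a2) in control mice and 5.54 to 11.08, 2.66 to 8.97 and 6.97 to 9.67 in exposed mice. With the mouse as a replicate block (12 mice with both tissues) they were 6.84, 3.89 and 7.42 in control and 6.35, 4.19 and 7.23 in exposed mice, and the difference of exposure effects was -0.49, 0.29 and -0.19, with no call changed by the pairing.

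No exposure difference of a member passed the threshold in any alternative or with any 1 mouse left out, and several small values changed sign. The sign changes and moved counts below were not traced, and the cause was not tested, beyond the smaller number of mice where mice were left out. In the lung, Scgb3a1 was -0.09 (ratio, marked spots kept) and -0.27 (Cy5 alone) without control mice 27 and 29, Scgb3a2 was 0.08 with median centering and 0.09 with Cy5 quantile normalised, and with each mouse left out the values were -0.23 to 0.00 (Scgb1a1), 0.18 to 0.60 (Scgb3a1) and -0.13 to 0.01 (Scgb3a2). In the liver, Scgb1a1 was -0.02 with Cy5 alone, Scgb3a1 was -0.04 (Cy5 quantile normalised) and -0.12 (Cy5 alone), and Scgb3a2 was 0.03 (no background correction), 0.04 (background model on all spots), 0.11 (the scanner's processed signals), 0.02 (median centering) and 0.04 (the authors' table), with left-out ranges of -0.03 to 0.04 for Scgb3a1 and -0.08 to 0.04 for Scgb3a2. The difference of the lung and liver effects was -0.10 (ratio) and -0.16 (Cy5 alone) for Scgb3a1 without lung control mice 27 and 29, and for Scgb3a2 0.05 (median centering) and 0.10 (Cy5 quantile normalised), with a left-out range of -0.12 to 0.03.

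The number of probes called in the lung, 83, became 14 with the background model on all spots, 4 with median centering, 133 with slide as a random block, 41 with Cy5 alone, 55 with marked spots kept and control mice 27 and 29 left out (87 with marked spots kept alone), 19 with Cy5 alone without these mice, and 64 to 81 with each mouse left out. For the difference of effects, 58 became 6 (background model on all spots), 34 (processed signals), 12 (median centering), 37 (Cy5 alone), 23 (Cy5 alone without these mice) and 46 to 65 (each mouse left out).

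Of the correlations, Scgb1a1 with Scgb3a1 no longer passed at 0.45 (without the 2 farthest arrays), 0.42 (Cy5 quantile normalised), 0.56 (Cy5 alone) and 0.15 (Cy5 alone without control mice 27 and 29). Scgb1a1 with Scgb3a2 passed at 0.70 (without these mice) and 0.67 (Cy5 alone), and Scgb3a2 with Scgb3a1 at 0.75 and 0.72. Settings without control mice 27 and 29, with Cy5 alone and with marked spots kept were chosen after seeing the data. Dim liver signals limit what the liver ratios of the 3 genes can show.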

Other observations

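Goblet cell genes, followed because exposed mouse 13 had the highest Scgb3a1, also varied between single lung arrays, and these values were chosen after they were seen. Clca3, a goblet cell gene, had a Cy5 signal of 23077 in exposed mouse 13, 1890 in exposed mouse 20, 3067 in control mouse 34, 693 in control mouse 24 and 414 in exposed mouse 19, with 73 to 192 in the other mice and 73 in both control mice 27 and 29. Tff2, a trefoil peptide of mucous cells, was at 1816 in exposed mouse 13, 73.5 and 79.5 in control mice 27 and 29, and 227 to 810 elsewhere. Agr2, which folds mucins, was at 1042 in exposed mouse 13, 77 and 85.5 in control mice 27 and 29, and 104 to 781 elsewhere.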
